A study of Arabidopsis thaliana with 8 samples.

Results

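The transcripts described here are those of the mitochondrial genome of Arabidopsis thaliana. They were taken as every row of the gene table whose identifier starts with ATMG and whose estimate had not been given up for too many fragments, which left 140 of 141 mitochondrial rows, out of 33201 rows in all. The study sorted cells from roots of Col-0 seedlings, protoplasted 5 days after germination, by the WOX5::GFP signal, a marker of the quiescent center (QC) inside the root stem cell niche. The tested cells carried the pan mutation and the same reporter (4 libraries), and the others carried the reporter in a wild type background (4 libraries). PAN is a bZIP transcription factor, and the nature of the pan allele is not given in the labels. The deposited table holds 1 pooled FPKM per gene and genotype (fragments scaled to transcript length and to library size), so no spread between libraries can be given, and depth per library is unknown. A row counts as called where the q-value in the authors' deposited table is under 0.05, and every change is the pan mutant over wild type.

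Plant mitochondria keep a genome of their own that encodes part of the respiratory chain. Its products are subunits of NADH dehydrogenase (complex I, nad genes), cytochrome b of complex III (cob), cytochrome oxidase (complex IV, cox genes) and ATP synthase (complex V, atp genes), together with cytochrome c maturation factors (ccm genes), some ribosomal proteins, ribosomal RNAs and transfer RNAs. The other subunits of these complexes, all of complex II in Arabidopsis, and the enzymes that copy, transcribe and process the mitochondrial genome are encoded in the nucleus and imported.

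A large stretch of the mitochondrial genome is also present in the nucleus, inserted near the centromere of chromosome 2, and reads of a gene present in both places can be given to either. On TAIR10.1, 72.2% of the RefSeq mitochondrial molecule matched chromosome 2 in stretches of at least 500 bases and 98% identity, most of it at chr2:3239038-3509765. These 3 pairs are shown as examples of a gene identical to its copy, with the mitochondrial row at 0 and the copy row above 0 (cob and rpl5), and of a gene that differs from its copy, with both rows above 0 (ccmFN1). Each is the first 150 bases of the gene, from RefSeq TAIR10.1, 5′ to 3′ along the gene, in lower case with capitals where the pair differs. The first pair is cob, on the minus strand of the mitochondrial molecule at MT:182709-182858 and on the plus strand of chromosome 2 at chr2:3450863-3451012.
cob, mitochondrial: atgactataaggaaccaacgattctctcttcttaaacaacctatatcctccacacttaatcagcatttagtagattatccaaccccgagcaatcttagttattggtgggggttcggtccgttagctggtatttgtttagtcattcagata
cob, nuclear copy: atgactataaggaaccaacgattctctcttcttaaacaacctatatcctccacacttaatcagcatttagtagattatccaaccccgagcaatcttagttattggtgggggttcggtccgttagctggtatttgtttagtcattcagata
The second pair is rpl5, which encodes a ribosomal protein, on the minus strand at MT:185170-185319 and on the plus strand at chr2:3448402-3448551.
rpl5, mitochondrial: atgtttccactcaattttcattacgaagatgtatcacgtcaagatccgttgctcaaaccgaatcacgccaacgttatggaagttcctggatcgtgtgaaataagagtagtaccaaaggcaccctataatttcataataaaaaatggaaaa
rpl5, nuclear copy: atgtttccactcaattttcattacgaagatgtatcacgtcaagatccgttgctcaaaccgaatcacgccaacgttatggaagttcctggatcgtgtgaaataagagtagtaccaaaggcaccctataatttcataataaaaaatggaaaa
The third pair is ccmFN1, on the plus strand in both places, at MT:316013-316162 and chr2:3297890-3298039.
ccmFN1, mitochondrial: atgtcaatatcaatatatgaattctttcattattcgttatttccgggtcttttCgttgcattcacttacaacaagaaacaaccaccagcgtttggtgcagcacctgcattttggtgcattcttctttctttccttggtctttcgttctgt
ccmFN1, nuclear copy: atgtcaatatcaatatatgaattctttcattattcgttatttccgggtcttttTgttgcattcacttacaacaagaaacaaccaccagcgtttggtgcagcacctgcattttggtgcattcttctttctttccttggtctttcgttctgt
The 1182 bases of cob and the 558 bases of rpl5 had 0 differences from their copies, and the 1149 bases of ccmFN1 had 1, written C54T with the mitochondrial base first and positions counted from the first base of the gene. The mitochondrial rows of the table lie on another molecule, whose own sequence was not compared. In the table, the mitochondrial rows of cob and rpl5 are listed at 0 FPKM in both genotypes. The row of the rpl5 copy, AT2G07725, held 37.1 FPKM in pan mutant cells and 94.6 FPKM in wild type cells, and that of the cob copy, AT2G07727, held 1.61 FPKM in pan mutant cells and 7.001 FPKM in wild type cells. For ccmFN1 the mitochondrial row held 0.934 FPKM in pan mutant cells and 2.35 FPKM in wild type cells, and the row of its copy, AT2G07783, held 8.18 FPKM in pan mutant cells and 28.4 FPKM in wild type cells.

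Other genes with an identical copy were listed in other ways. Of the 9 named respiratory, ribosomal and maturation rows at 0 in both genotypes that have a copy row, 6 had a copy row above 0 in both genotypes, and 3 (atp8, ccmC and rps12) had the copy row at 0 as well. The rows of nad3 and atp6 were above 0 with the copy row at 0, while atp1, atp9 and cox3 were above 0 in both places. Whether reads were moved between a gene and its copy was not tested.

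Of the 140 mitochondrial rows, 66 are listed at 0 in both genotypes and 51 were tested. Among named rows of at least 300 bases with a locus to themselves, 28 of 41 with an identical nuclear copy are listed at 0 in both genotypes, against 1 of 19 with a near-identical copy (at least 98% identity over at least 90% of the length) and 0 of 26 with no full-length copy. Tested rows numbered 10, 8 and 24 in these sets. The sets rest on RefSeq genes, whose mitochondrial molecule differs from the one in the table. Whether a row's own sequence is identical to its copy was not tested. How the authors' tools shared reads with several matches is not stated, so a row listed at 0 is not read here as a gene without RNA. The 17 transfer RNA rows, of 67 to 88 bases, are also all at 0 in both genotypes.

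**Figure D1:**
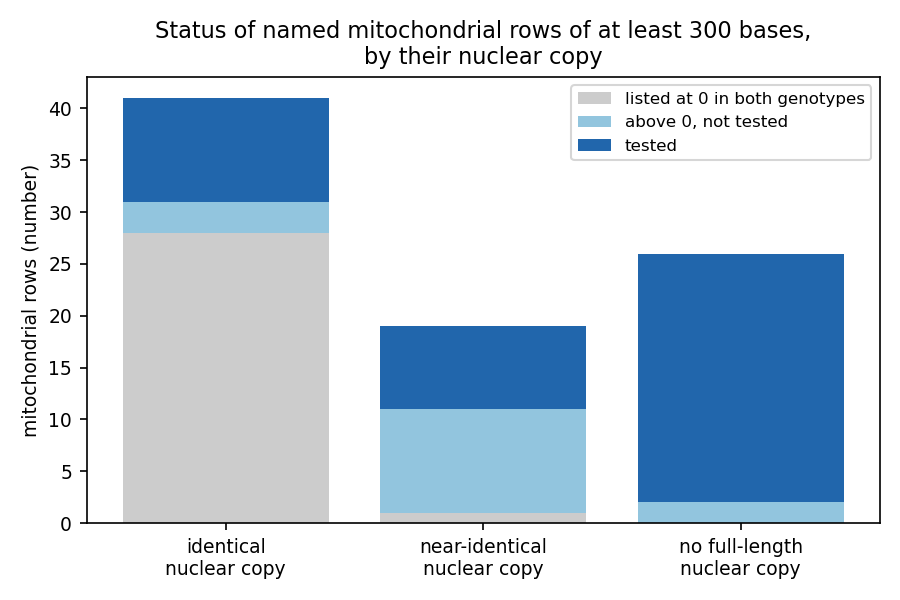
Number of named mitochondrial rows of at least 300 bases by the kind of nuclear copy, split into rows listed at 0 in both genotypes, above 0 but not tested, and tested. Of the rows with an identical copy 28 of 41 are at 0, against 0 of 26 with no full-length copy. Copies were judged on RefSeq genes, whose mitochondrial molecule differs from the one in the table.

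In pan mutant cells most tested mitochondrial transcripts stood lower than in wild type cells, but few were called. Of the 50 tested rows with a finite change 39 were lower in the pan mutant and 11 higher, with a median log2 change of -0.59. That median was -0.30 without rows found to have an identical or near-identical nuclear copy. It was -0.19 with a pseudocount of 5 FPKM and -1.16 for rows with a mean of at least 5 FPKM. The value of -0.30 kept 7 tested rows without a name that were not compared with the nucleus (median 0.28). The 25 tested rows found to have no full-length copy had a median of -0.40, with 21 lower. Over all tested rows the median was -0.17, and 55.2% were lower. Of the 51 tested rows 3 were called in the authors' deposited table, 2 lower and 1 higher, which is 5.88%, against a background of 17.8% over all 19789 tested rows (9.83% lower and 8.01% higher). The share of called rows was below the background in each direction. Tested mitochondrial rows also stood at lower levels, with medians of 2.55 FPKM in pan mutant cells and 3.04 FPKM in wild type cells. Over all tested rows these medians were 9.38 and 11.5 FPKM. The part of level in the share called was not tested. Changes reached 2-fold or more downward in 20 tested rows and upward in 3. The 25th percentile of the log2 change was -1.66 for mitochondrial rows and -1.16 over all tested rows. The 75th was -0.10 for mitochondrial rows and 0.68 over all tested rows. Falls of 2-fold or more were thus common in the whole table. At q under 0.01 the called rows were 2, against a background of 8.64%, and at an unadjusted p under 0.05 they were 8, against a background of 30.8%.

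**Figure D2:**
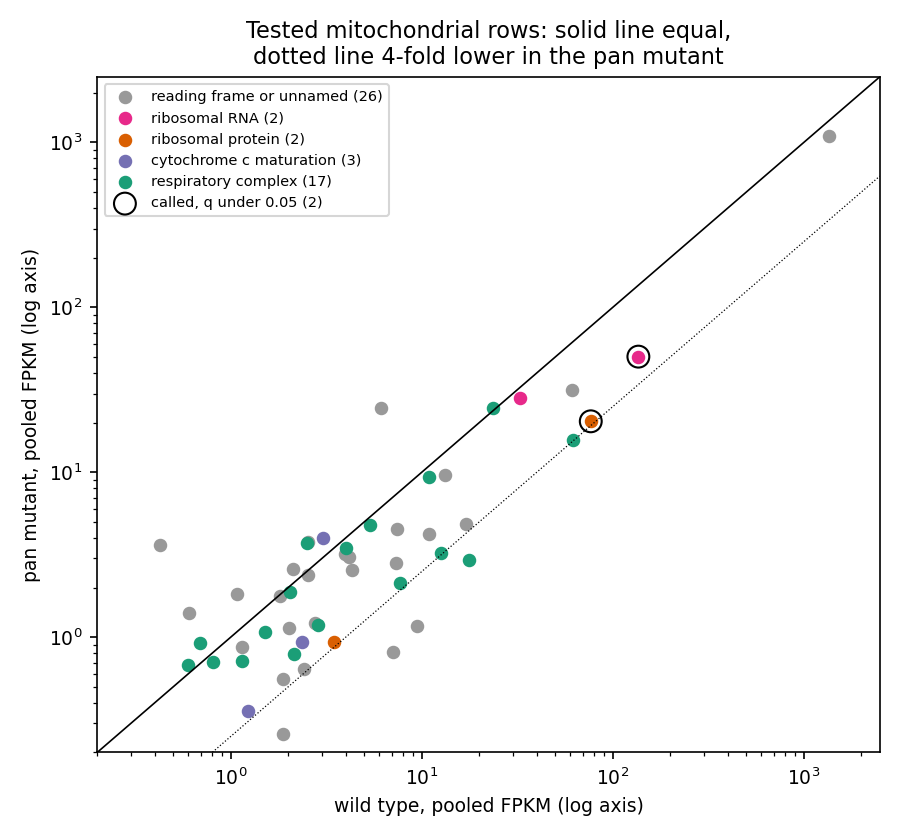
Pooled FPKM of the 50 tested mitochondrial rows with a finite change, pan mutant on the vertical and wild type on the horizontal log axis, coloured by class. Of these, 39 lie below the line of equal level, and the 2 ringed rows, rrn18 and rps3 with rpl16, are called.

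The called rows that fell carry parts of the mitochondrial ribosome. The row of rps3 and rpl16, adjoining genes for a small-subunit and a large-subunit protein (ATMG00080 and ATMG00090, listed together at Mt 25076 to 28733), held 20.4 FPKM in pan mutant cells and 76.7 FPKM in wild type cells. Its log2 change in the authors' deposited table was -1.91 (q = 0.00984, Cuffdiff). The small-subunit ribosomal RNA rrn18 (ATMG01390, Mt 361350 to 363284) held 50.3 FPKM in pan mutant cells and 136 FPKM in wild type cells, a log2 change of -1.44 in the authors' deposited table (q = 0.00273, Cuffdiff). In TAIR10.1 no full-length nuclear copy was found for either, though for rps3 with rpl16 only part of the row was compared. The other tested ribosomal protein row, rpl2, held 0.937 FPKM in pan mutant cells and 3.46 FPKM in wild type cells and was not called, with a log2 change of -1.88 and q = 0.224 in the authors' deposited table. The short ribosomal RNA rrn5 held 28.2 FPKM in pan mutant cells and 32.7 FPKM in wild type cells, which was not called (q = 0.942 in the authors' deposited table). The other 4 ribosomal protein rows, rpl5, rps4, rps7 and rps12, were untested and listed at 0 in both genotypes.

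All 9 tested complex I rows were lower in pan mutant cells, and none was called. Their median log2 change was -0.50. Over all tested rows 55.2% were lower, with a median of -0.17. The changes of both nad5 rows, nad1 and nad4 lay between -0.20 and -0.12, near that median. The 9 rows are not 9 genes, since nad2 and nad5 have 2 rows each. Of these 9 rows, 4 have an identical or near-identical nuclear copy (nad3, both nad2 rows and the nad5 row ATMG00513), and whether reads were split with it was not tested. The row of nad3, a small membrane subunit (Mt 260647 to 261461, listed with 2 more identifiers), came nearest to the threshold from outside. It held 15.8 FPKM in pan mutant cells and 61.9 FPKM in wild type cells, a log2 change of -1.97 in the authors' deposited table (q = 0.0736). The row spans 815 bases, and only the shorter nad3 gene was compared with the nucleus. That gene has an identical nuclear copy, whose row AT2G07751 is at 0 in both genotypes. The row of nad9, a subunit of the matrix arm, held 3.25 FPKM in pan mutant cells and 12.6 FPKM in wild type cells, and nad4L, another membrane subunit, held 2.95 FPKM in pan mutant cells and 17.8 FPKM in wild type cells. Their log2 changes in the authors' deposited table were -1.96 (q = 0.132) and -2.59 (q = 0.143). The other 6 rows, 2 each of nad2 and nad5 and 1 each of nad1 and nad4, stood closer together between the genotypes. For these genes, apart from nad4, the exons lie scattered over the genome and are joined in trans, so that a row can hold part of a gene. The first nad5 row (ATMG00060) held 3.50 FPKM in pan mutant cells and 4.01 FPKM in wild type cells, nad1 (ATMG01120) held 4.78 FPKM in pan mutant cells and 5.33 FPKM in wild type cells, and nad4 held 1.88 FPKM in pan mutant cells and 2.04 FPKM in wild type cells. A nuclear copy covers 87.2% of nad4 at 99.9% identity, and its row, AT2G07717, was called lower, with 5.15 FPKM in pan mutant cells and 17.98 FPKM in wild type cells (q = 0.00116 in the authors' deposited table). The nad2 row at ATMG01320 held 1.18 FPKM in pan mutant cells and 2.87 FPKM in wild type cells, the widest gap among these 6 (q = 0.413 in the authors' deposited table), and it shares its locus with another row.

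Complexes IV and V showed no common direction. The row of cox1, the catalytic subunit of cytochrome oxidase, held 9.30 FPKM in pan mutant cells and 11.0 FPKM in wild type cells. Its partner cox2 held 3.74 FPKM in pan mutant cells and 2.51 FPKM in wild type cells, and cox3 held 0.790 FPKM in pan mutant cells and 2.15 FPKM in wild type cells. None of the 3 was called, and the q-values in the authors' deposited table were 0.797, 0.717 and 0.340. The row of atp9, the ring subunit of ATP synthase, held 24.5 FPKM in pan mutant cells and 23.6 FPKM in wild type cells. The row of its identical nuclear copy, AT2G07671, held 14.4 FPKM in pan mutant cells and 22.4 FPKM in wild type cells. The peripheral stalk subunit atp4 held 2.14 FPKM in pan mutant cells and 7.70 FPKM in wild type cells, a log2 change of -1.85 in the authors' deposited table (q = 0.225). The catalytic subunit atp1 held 0.712 FPKM in pan mutant cells and 1.14 FPKM in wild type cells. The proton channel subunit atp6 has 2 rows. They held 0.922 and 0.682 FPKM in pan mutant cells and 0.693 and 0.597 FPKM in wild type cells. Both were matched to the same reference gene, so the split between the rows is uncertain.

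The cytochrome c maturation genes, whose products deliver heme to cytochrome c, also went both ways. ccmB held 3.98 FPKM in pan mutant cells and 3.04 FPKM in wild type cells, and ccmFN2 held 0.356 FPKM in pan mutant cells and 1.24 FPKM in wild type cells. With ccmFN1, given above, 3 of 5 rows were tested and none was called. The lowest of their q-values in the authors' deposited table was 0.362. ccmC is listed at 0 in both genotypes, and ccmFC was untested with 0.0238 FPKM in pan mutant cells and 0.117 FPKM in wild type cells.

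**Figure D3:**
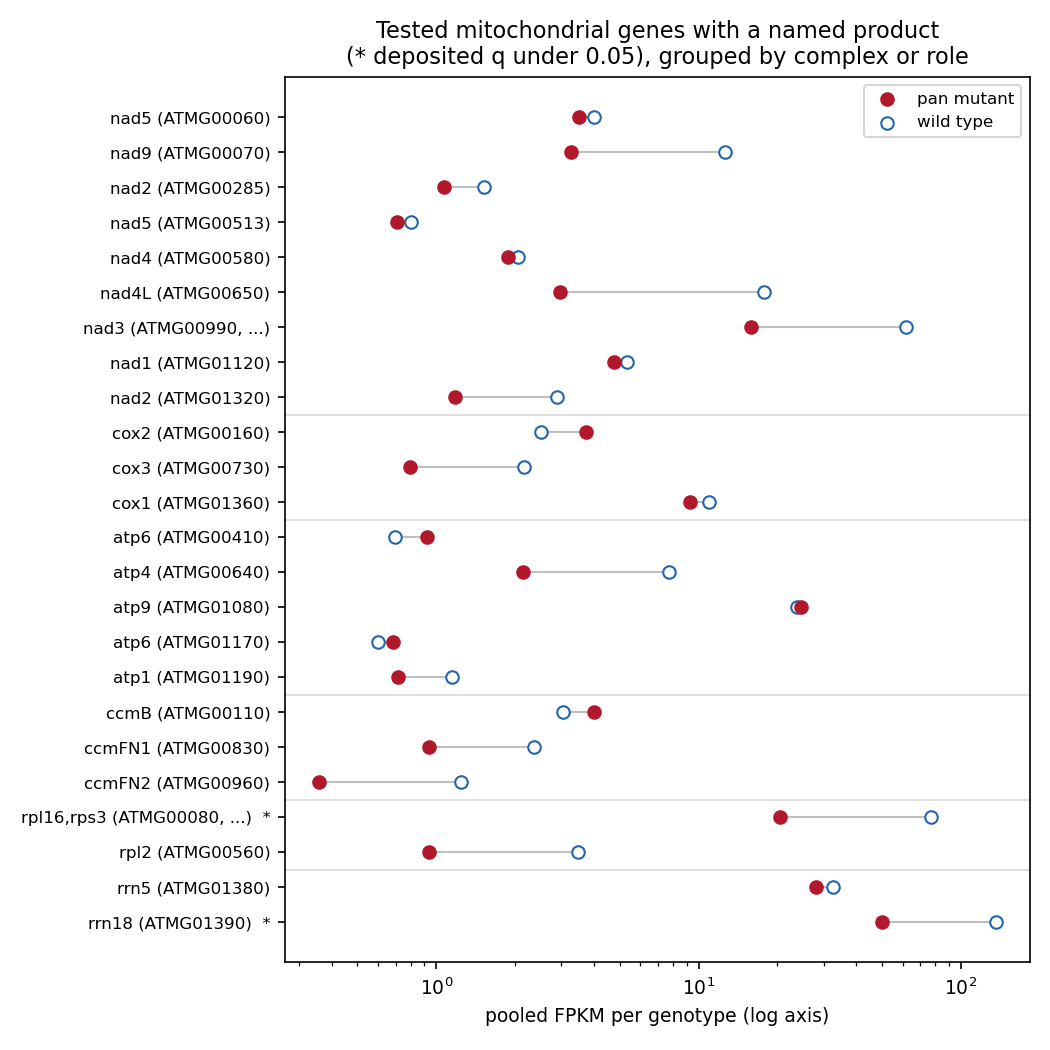
Pooled FPKM on a log axis of the 24 tested mitochondrial rows with a named protein or ribosomal RNA, pan mutant (filled) and wild type (open), grouped by complex or role. The widest gaps are those of nad4L, nad3, nad9, rps3 with rpl16, rpl2 and atp4, all with the pan mutant below, and the starred rows are called.

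Several of the lower rows lie beside each other. This grouping was chosen after the values were seen and was not tested. The row of nad9 ends 840 bases before that of rps3 and rpl16, with log2 changes of -1.96 and -1.91 in the authors' deposited table. The rows of atp4 and nad4L are 266 bases apart, with log2 changes of -1.85 and -2.59 there. The rows of nad3 and the reading frame ORF153B are 155 bases apart, with log2 changes of -1.97 and -3.14 in the authors' deposited table. Neighbours did not always move alike: rrn5 and rrn18 are 170 bases apart, with log2 changes of -0.21 and -1.44 there. ORF111D lies 9 bases from rrn5 on the other side, with a log2 change of -1.82. ORF149 lies 872 bases from nad4L, with log2 changes of -0.95 for ORF149 and -2.59 for nad4L.

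Among reading frames and rows without a name, 27 of 87 were tested and 1 was called. ORF106B (ATMG00450, Mt 119381 to 119701) held 2.09 FPKM in pan mutant cells and is listed at 0 in wild type cells, and was called higher in the authors' deposited table (q = 0.0147). It has an identical nuclear copy, and no fold is given against a value listed at 0. ORF153B (ATMG01020) held 0.808 FPKM in pan mutant cells and 7.10 FPKM in wild type cells, just outside the threshold (q = 0.0901 in the authors' deposited table). The highest level of any member was that of ATMG00030, a row without a name here, with 1097 FPKM in pan mutant cells and 1354 FPKM in wild type cells (q = 0.555 in the authors' deposited table). Among reading frames and unnamed rows, ORF149 came next with 31.7 FPKM in pan mutant cells and 61.2 FPKM in wild type cells. ATMG01400, also unnamed, went the other way, with 24.6 FPKM in pan mutant cells and 6.12 FPKM in wild type cells (q = 0.271 in the authors' deposited table). ORF111D held 4.84 FPKM in pan mutant cells and 17.1 FPKM in wild type cells, and ORF106F held 9.63 FPKM in pan mutant cells and 13.2 FPKM in wild type cells. The 1 mitochondrial row left out, ATMG00020, is listed at 0 FPKM in pan mutant cells and 7703 FPKM in wild type cells with its estimate marked as given up, so neither value is used.

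Summed over the members, mitochondrial rows made up 0.154% of all listed FPKM in pan mutant cells and 0.252% in wild type cells. Rows with too many fragments, 9 in the whole table, were left out of the totals behind every such share. ATMG00030 alone held 0.120% in pan mutant cells and 0.173% in wild type cells. Without it the members summed to 309 FPKM in pan mutant cells and 615 FPKM in wild type cells, a log2 ratio of -0.99.

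Rows of the nuclear copies and of the plastid genome were set beside the mitochondrial ones. The 22 named genes with a copy row share 20 copy rows, of which 13 were tested. Of the 13, 12 were lower in pan mutant cells, with a median log2 change of -1.27. Over all tested rows 55.2% were lower, with a median of -0.17. Among the 12, AT2G07711 hardly differed, with a log2 change of -0.005. The 1 higher row, the nad6 copy AT2G07731, held 0.732 FPKM in pan mutant cells and 0.104 FPKM in wild type cells. Only AT2G07783, the ccmFN1 copy, was called, which is 7.69% against the background of 17.8%. Its log2 change was -1.80, with q = 0.0034 in the authors' deposited table. For ccmFC the copy row was taken as AT2G07756, untested and at 0 in both genotypes. Another row with the same locus, AT2G07815, held 0.824 FPKM in pan mutant cells and 6.66 FPKM in wild type cells. It was called lower (q = 0.00812 in the authors' deposited table). In the whole insertion, 58 of 122 rows were tested, with 3 called higher and 3 called lower (10.3%, against the background of 17.8%) and a median log2 change of -1.21. The plastid genome moved further: 28 of 77 tested rows were called lower (36.4%, against 9.83% of all tested rows) and 0 higher, the median log2 change was -2.05, and its share of all listed FPKM was 0.243% in pan mutant cells and 1.13% in wild type cells. The difference between the organelles was not tested.

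Nuclear genes for respiration stood on the other side. The list, called nuclear-encoded respiratory subunits here, holds genes for complexes I, III, IV and V and also for complex II and cytochrome c. Of 39 entries with a row, all tested, 18 were called higher in the pan mutant and 1 lower. That is 48.7% in all, against the background of 17.8%, and the median log2 change was 0.85. The median level of these entries was 321 FPKM in pan mutant cells and 175 FPKM in wild type cells. SDH1-1, the flavoprotein of complex II, held 361 FPKM in pan mutant cells and 135 FPKM in wild type cells, a log2 change of 1.42 in the authors' deposited table (q = 0.00116). AT1G51980, a processing peptidase subunit of complex III, held 283 FPKM in pan mutant cells and 108 FPKM in wild type cells, and AT3G27240, a cytochrome c1, held 374 FPKM in pan mutant cells and 146 FPKM in wild type cells; both had q = 0.00116 in the authors' deposited table. AT2G47380, a cytochrome oxidase subunit, held 761 FPKM in pan mutant cells and 307 FPKM in wild type cells, with a q of 0.0497 in the authors' deposited table. The 1 called lower, named after its values were seen, was GLDH, the last enzyme of ascorbate synthesis and an assembly factor of complex I, with 26.1 FPKM in pan mutant cells and 52.6 FPKM in wild type cells. Whether the mitochondrial and nuclear lists differ in their change was not tested. Of the alternative respiratory enzymes, AOX1A, an alternative oxidase, rose to 119 FPKM in pan mutant cells, against 62.7 FPKM in wild type cells (q = 0.042 in the authors' deposited table). NDB2, an external NADH dehydrogenase, rose to 155 FPKM in pan mutant cells, against 66.1 FPKM in wild type cells (q = 0.00465 in the authors' deposited table). NDA1, an internal one, fell to 0.959 FPKM in pan mutant cells, against 6.49 FPKM in wild type cells (q = 0.0275 in the authors' deposited table), and the other entry of that list was not called.

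Nuclear genes that maintain and process the mitochondrial genome had a median log2 change of -0.50, with 5 of 23 called lower and 0 higher. That is 21.7% called, near the background of 17.8% for calls in either direction, where 9.83% of all tested rows were called lower. AT1G30680, the homolog of the TWINKLE helicase, which unwinds organelle DNA, fell to 5.05 FPKM in pan mutant cells, against 29.1 FPKM in wild type cells (q = 0.00116 in the authors' deposited table). MSH1, which limits recombination of organelle DNA, fell to 1.40 FPKM in pan mutant cells, against 5.65 FPKM in wild type cells. The organelle DNA polymerase at AT3G20540 fell to 2.55 FPKM in pan mutant cells, against 9.04 FPKM in wild type cells, and AT5G46920, a maturase for intron splicing, fell to 3.21 FPKM in pan mutant cells, against 9.98 FPKM in wild type cells. The fifth, named after its values were seen, was MORF1, an RNA editing factor.

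**Figure D4:**
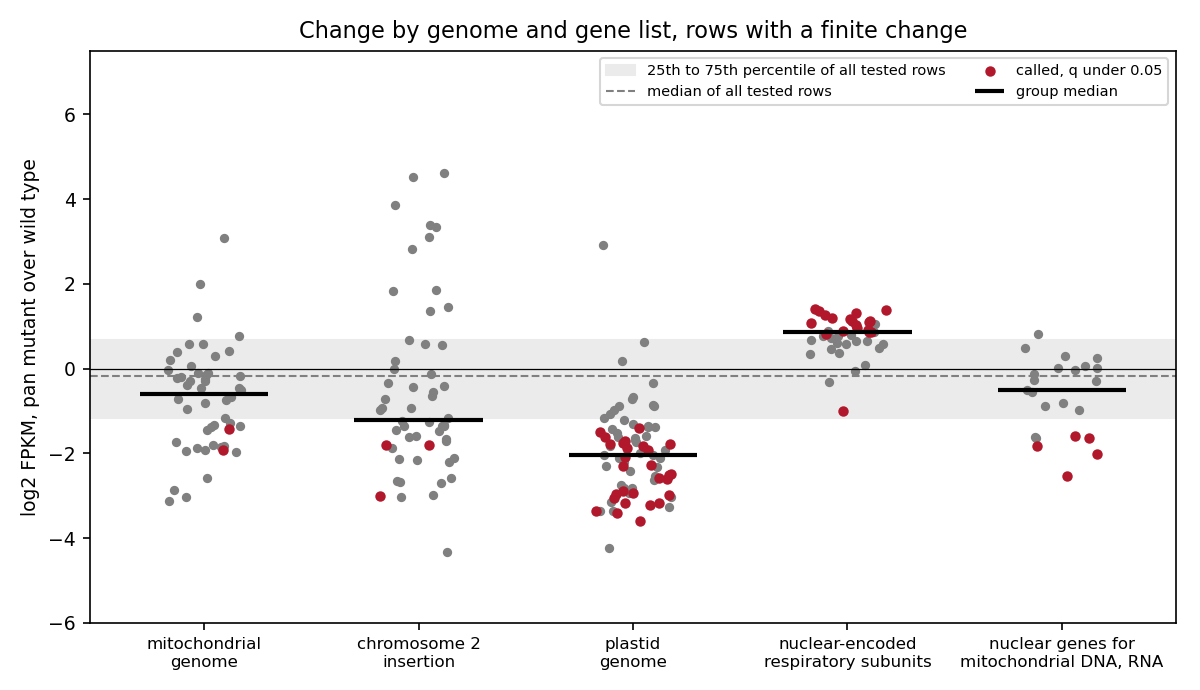
Log2 change of pooled FPKM, pan mutant over wild type, for tested rows with a finite change in 5 groups, with called rows in red, group medians as bars and the 25th to 75th percentile of all tested rows shaded. The median is -0.59 for the mitochondrial genome, -2.05 for the plastid genome and 0.85 for nuclear-encoded respiratory subunits.

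Markers of several root cell types moved with genotype in the same table. PAN itself held 0.265 FPKM in the cells labelled pan mutant and 19.996 FPKM in wild type cells (q = 0.0386 in the authors' deposited table). WOX5, the gene of the sorting reporter, held 8.27 FPKM in pan mutant cells and 205 FPKM in wild type cells. All 6 QC and niche markers were called lower in the pan mutant, with sums of 48.6 FPKM in pan mutant cells and 573 FPKM in wild type cells, as were all 4 root cap markers (96.6 FPKM in pan mutant cells and 340 FPKM in wild type cells). Of 8 epidermis and root hair markers 6 were called higher, with sums of 2321 FPKM in pan mutant cells and 612 FPKM in wild type cells, and no marker of the 3 lists is at 0 in either genotype. The part of these differences in the mitochondrial values was not tested. Fewer cells of a type and less RNA per cell cannot be told apart in such pools.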

How the data were processed

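RNA from WOX5::GFP-sorted root cells was measured in 4 pan mutant and 4 wild type libraries. The labels' protocols name the RNeasy Micro kit for extraction and the SMARTer Low Input kit for amplified cDNA. They state neither how cDNA was primed nor whether strand was kept. How much of the mitochondrial RNA was taken into cDNA is therefore unknown, and overlapping genes are uncertain. Of the mitochondrial rows, 14 share a locus with another. TopHat2 2.0.13, Cufflinks 2.1.1, Cuffdiff and TAIR10 were named in the submitters' processing notes; settings, and how reads with several matches were shared, are not given there. The table was deposited by the authors as FPKM, pooled per genotype, with log2 of the pan mutant over wild type value, a test statistic (a score, not used), and a p-value with an adjusted q-value per tested gene, as read from the file headers.

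The authors' deposited comparison was used as it stands, with calls at q under 0.05; no test was refitted, since the table holds no values per library. Per the labels, the 4 libraries of a genotype are biological replicates. Counts, medians of finite log2 changes and shares of summed FPKM were computed in Python 3.11.15 with pandas 2.3.3 and checked on simulated data. The table gives mitochondrial identifiers, and 106 of 141 rows were named from RefSeq TAIR10.1, whose mitochondrial molecule differs from the one in the table, by spacing to at least 2 neighbours (within 10 bases) together with locus length (within 45 bases) or, for 7 rows that differ more in length from the reference gene (among them rps3 with rpl16, nad3, cox3, atp9, rpl2 and atp6), 1 matching edge; rows that share a locus were named only where a product note told them apart. Member coordinates are those of the table, 1-based. Nuclear copies were found with BLAST 2.17.0 on the nuclear chromosomes of TAIR10.1. The sequence compared was the RefSeq gene matched to each named row. For the 7 rows matched by an edge it differs in length from the row, and for rps3 with rpl16 it covers part of the row. Rows without a name were not compared. The genes named in the text are every tested member with a named protein or ribosomal RNA, the called, highest and near-threshold reading frames, and up to 4 called members of each nuclear list, with GLDH and MORF1 added after their values were seen. The members and lists were chosen with earlier results of these data known. Alternatives were another q, the unadjusted p, a minimum of 5 FPKM, pseudocounts, 2 other scalings and leaving out genes with nuclear copies.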

Additional observations from a re-analysis of the deposited data

Results flagged for a closer look

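Untested mitochondrial rows lie outside the deposited comparison, and 5 of them were above 0 in the pan mutant and listed at 0 in wild type: ATMG00360 at 0.828 FPKM, ATMG00370 at 0.0139 FPKM, ATMG00470 at 0.182 FPKM, ATMG00720 at 0.113 FPKM and ATMG01280 at 0.0713 FPKM in pan mutant cells. No untested mitochondrial row was at 0 in the pan mutant and above 0 in wild type (0 rows). Over all untested rows of the table the same imbalance held, with 180 rows at 0 only in the pan mutant and 5828 at 0 only in wild type. ATMG00360 and ATMG00370 share 1 locus, and ATMG00470 has an identical nuclear copy. The part of depth in these values was not tested.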

How the results depend on the processing

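The 3 called mitochondrial rows became 2 at q under 0.01, 2 among rows with a mean of at least 5 FPKM and 2 without near-identical nuclear copies, and 8 at an unadjusted p under 0.05, of which 7 were lower in the pan mutant, against a background of 30.8%. The median log2 change of mitochondrial rows stayed below 0 in each alternative run: -0.35 with a pseudocount of 1 FPKM, -0.19 with 5 FPKM, -1.16 for means of 5 FPKM or more, -0.43 under median-of-ratios scaling over nuclear genes, -0.81 when rescaled to the nuclear sum and -0.30 without near-identical nuclear copies; the cause was not tested. These 2 scalings took off shifts of -0.16 and 0.22 from every change. Leaving out nuclear copies dropped rows with an identical or a near-identical copy and kept rows that were not compared with the nucleus. The median of nuclear-encoded respiratory subunits stayed above 0, at 0.80 with a pseudocount of 5 FPKM, 0.84 with the same minimum, 1.01 under median-of-ratios scaling and 0.63 when rescaled. Without ribosomal and transfer RNA rows the mitochondrial share was 0.145% in pan mutant cells and 0.230% in wild type cells. No paired analysis was possible because the table holds only pooled values; leaving out replicates and the replicate block were not run for the same reason. Without values per library, no change can be set against the spread between replicates by more than the deposited q, low rows rest on an unknown number of fragments, and rows with identical nuclear copies cannot be read as levels of mitochondrial RNA.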
